A study of Mus musculus with 6 samples.

Results

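The genes that dock, prime and fuse insulin granules were followed in MIN6, an insulin-secreting line from a mouse insulinoma, under chronic epinephrine. They were picked by symbol (syntaxins and syntaxin-binding proteins, Snap23, Snap25, Snap29, Snap47, VAMPs, synaptotagmins and synaptotagmin-like proteins, Unc13, complexin, RIM, Rab3 and Rab27 genes, numbered exocyst subunits, Napa and Nsf). The rule took 103 of the 22298 genes in the deposited table. These held 28 genes grouped as SNAREs, 17 synaptotagmins grouped as calcium sensors, 34 genes of priming and docking, and 12 exocyst genes. The SNARE group includes Napa and Nsf, which act on SNARE complexes. Of the synaptotagmins, 9 are classed as without calcium binding. The prefix Rab3 also matched 12 genes from Rab30 to Rab39b, which are other Rab GTPases and are described apart. RNA was sequenced from 3 controls and 3 chronically exposed samples, and both groups are the same line. The study describes the exposure as 100 nM epinephrine over 3 days and a withdrawal of 2 days, but the day on which RNA was taken is not named, so whether these samples had passed through withdrawal is not known here. MIN6 is a tumour line from transgenic mice that carry a viral T antigen under the insulin promoter. The study's methods speak of biological replicates and independent samples, and the labels do not name separate cultures, so p-values measure the spread between these samples.

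Insulin leaves the beta cell by regulated exocytosis. A SNARE protein on the granule (VAMP) zips together with SNAREs of the plasma membrane (a syntaxin and a SNAP-25 type protein), and syntaxin-binding, Munc13, complexin and RIM proteins arrange and hold this complex until a synaptotagmin senses calcium. Rab3 and Rab27 with their effectors bring granules to the membrane, the exocyst tethers them there, and NSF with alpha-SNAP takes spent complexes apart. Epinephrine acts on beta cells mainly through inhibitory adrenergic receptors, which lower cyclic AMP and can also restrain fusion itself.

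Each control library held 15017065 to 17457583 expected counts, and each epinephrine library 15256957 to 18127171. Control 1 stood apart from the other libraries: on the first principal component, which held 44.6% of the variance of log2 CPM (reads scaled to the TMM-normalized library total), it lay at -38.9 and the other 5 lay between -2.37 and 15.9. Values without control 1 are therefore given beside many of the results it touches. All 20 beta-cell markers were tested, and their summed level was 66400 to 84000 CPM over the 6 libraries, as the label of an insulin-secreting line requires. Ins1 (log2 fold change -0.50) and Slc2a2 (-0.76) were called lower and Chgb (0.47) higher after epinephrine. Markers of other islet hormone cells summed to 177 to 214 CPM in controls and 379 to 412 CPM after epinephrine, with Gcg called higher (1.02). The 20 hepatocyte markers summed to 36.2 CPM in control 1, 123 CPM in control 2 and 282 CPM in control 3, against 31.8 to 33.5 CPM after epinephrine. Neuron markers, which beta cells share in part, summed to 1450 to 1710 CPM in controls and to 1580 to 1590 CPM after epinephrine. Exocrine pancreas markers summed to 2.65 to 4.0 CPM and 12.4 to 14.0 CPM, with 8 of 17 at 0 in all libraries, leukocyte markers to 4.06 to 6.21 CPM and 8.66 to 11 CPM, and fibroblast markers to 2.40 to 26.3 CPM and 2.98 to 20.8 CPM. The part of these other RNAs in the differences below was not tested. In bulk RNA, fewer cells of a type and less RNA per cell cannot be told apart.

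Few of the members were called different between the groups, at a share of 5.88% against 2.63% of all genes. Whether the shares of members and of all genes differ was not tested. By edgeR's quasi-likelihood test, adjusted over 12747 genes by the Benjamini-Hochberg method (FDR), 5 of the 85 members that passed the filter on low counts were called at an FDR under 0.05, against 2.63% of all genes tested. Of these, 4 were higher after epinephrine (Syt5, Rab30, Syt4 and Rab3d; 2.02% of all genes were called higher), and 1 was lower (Sytl4; 0.612% of all genes were called lower). None of the members passed both the FDR and a 2-fold change in edgeR, in DESeq2 or in limma on FPKM, against 0.722% of all genes in edgeR. An unadjusted p under 0.05 was seen for 22 of the 85 members (25.9%), 11 higher and 11 lower, against 17.1% of all genes. Over all 12747 genes, 1171 had such a p and were higher, and 1008 were lower. The control and epinephrine values did not overlap for 33 members (38.8%), against 27.3% of all genes. Among those 33, 18 were higher after epinephrine (14.3% of all genes) and 15 lower (13% of all genes). With 3 samples against 3 an exact two-sided permutation test of one gene cannot give a p below 0.1, which is the value of all 5 called members. The median log2 fold change of the tested members was -0.03, and that of all genes was -0.00. DESeq2 called 10 of 95 members, against 5.23% of all genes, and limma on log2(FPKM + 1) called 2 of 85, against 2.06% of all genes.

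**Figure D1:**
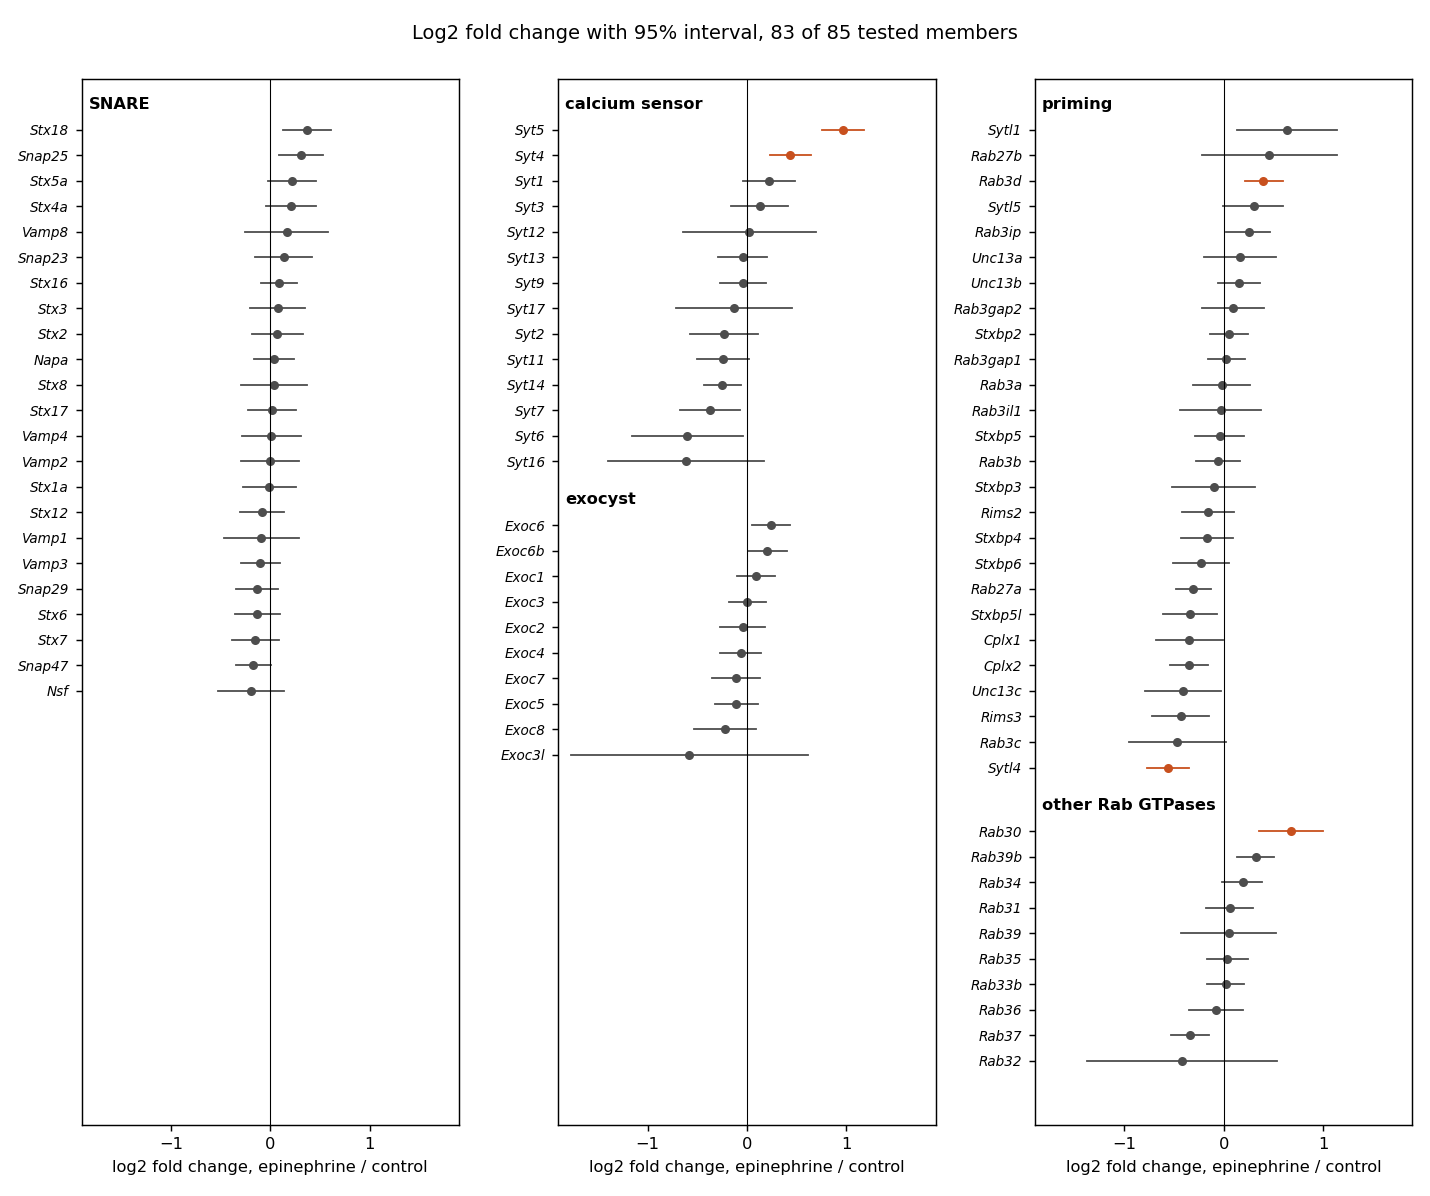
Log2 fold change (epinephrine over control) of 83 of the 85 tested members by group, with points for the edgeR estimate and bars for its 95% interval. Orange marks the 5 members at an FDR under 0.05; the other intervals are grey, and most of them cross 0.

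The other 18 members were below the filter, and none of them reached 1 CPM in any library. They were Stx11, Stx19, Vamp5, Vamp9, Syt8, Syt10, Syt15, Unc13d, Rims1, Rims4, Cplx3, Cplx4, Sytl2, Sytl3, Exoc3l2, Exoc3l4, Rab33a and Rab38. Their highest value was 0.926 CPM, for Stx11 in epinephrine sample 3. Syt8 and Cplx4 had 0 counts in all 6 libraries, which allows a level of up to 0.168 to 0.198 CPM per library (3 counts, counting error only).

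Among the calcium sensors, Syt5 rose, and it was the only call kept whichever library was left out. Syt5 (ENSMUSG00000004961, chr7:4539765-4547541, minus strand, GRCm38) encodes a calcium-binding synaptotagmin of dense-core granules. Its level was 24.1, 22.5 and 25.5 CPM in controls 1 to 3 and 45.5, 45.4 and 50.1 CPM in epinephrine samples 1 to 3. The groups lay far apart, with 24.0 ± 1.48 CPM in controls and 47 ± 2.68 CPM after epinephrine (SD, n = 3 each). The log2 fold change was 0.97 with a standard error of 0.09 (1.96-fold, FDR 0.00199), with 372 to 811 reads behind each value. It stayed under an FDR of 0.05 whichever library was left out, with 0.92 to 1.01 on the log2 scale and an FDR of at most 0.0287. Without control 3 its log2 fold change of 1.01 passed the 2-fold threshold.

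Syt4 (ENSMUSG00000024261, chr18:31437808-31447406, minus strand) also rose. It encodes a synaptotagmin with little or no calcium binding of its own that changes the calcium dependence of insulin secretion as beta cells mature. It measured 263, 310 and 293 CPM in controls and 399, 397 and 374 CPM after epinephrine, so the lowest treated sample lay above the highest control. The log2 fold change was 0.43 with a standard error of 0.09 (1.35-fold, FDR 0.0459). The call was kept in 4 of 7 alternatives with all libraries and lost with upper quartile scaling (FDR 0.0571), limma on FPKM (0.0531) and replicate number as a block (0.117). The FDR was 3.51e-06 without control 1, and the call was lost without any other library, with an FDR of 0.0892, 0.113, 0.274, 0.25 and 0.193 without controls 2 and 3 and epinephrine samples 1, 2 and 3. An antisense gene, Gm26658, overlaps Syt4 and covers 10.9% of the 50-base windows of its exons, and no source used here states that counting used strand, so reads of the pair cannot be told apart there.

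The other calcium-binding synaptotagmins did not move as a block. Syt7, the high-affinity calcium sensor of sustained insulin release, was at 397, 295 and 285 CPM in controls and at 250, 253 and 253 CPM after epinephrine. All treated samples were below all controls and control 1 was the highest by far, but the log2 fold change of -0.37 ± 0.13 (SE) did not pass the test (FDR 0.194). Without control 1 the difference was smaller, -0.20 ± 0.05, and passed it (FDR 0.00309). Syt9, a calcium sensor of insulin granules, was at 65.1, 53.7 and 53.1 CPM in controls and 55.3, 54.1 and 57.3 CPM after epinephrine. The Syt9 groups overlapped, and the 95% interval of the log2 fold change ran from -0.27 to 0.19. Syt1, the fast calcium sensor of neurons, was at 9.2 to 11.2 CPM in controls and 11.9 to 12.3 CPM after epinephrine (FDR 0.372), and Syt6 at 2.44 to 4.40 CPM and 2.07 to 2.31 CPM (log2 fold change -0.60, FDR 0.258; -0.37 and 0.342 without control 1). Syt13, an abundant synaptotagmin without calcium binding, was at 959, 751 and 784 CPM in controls and 817, 782 and 818 CPM after epinephrine, with overlapping groups. Its log2 fold change of -0.04 was 0.07 without control 1 (FDR 0.318). Syt14, also without calcium binding, was at 139, 144 and 130 CPM in controls and 118, 115 and 115 CPM after epinephrine (FDR 0.167; 0.00223 without control 1). Over the 14 tested synaptotagmins, 5 had a positive and 9 a negative log2 fold change, with a median of -0.09 (7 and 7, with a median of -0.01, without control 1). For 5 of the 14 the unadjusted p was under 0.05, 2 higher and 3 lower, a larger share than the 17.1% of all genes. The groups did not overlap for 3 that were higher and 4 that were lower, against 14.3% and 13% of all genes. Whether these shares differ was not tested. The fit without control 1 called 3 higher and 2 lower, against 12.1% and 9.46% of all genes.

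**Figure D2:**
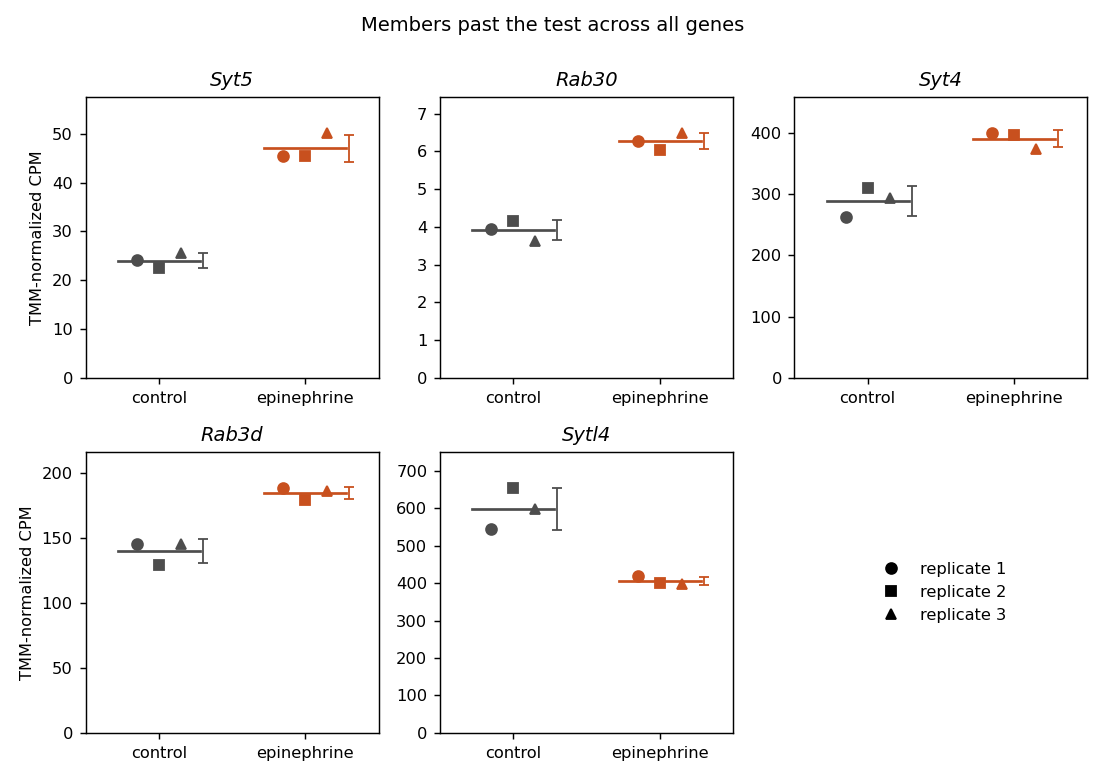
Level of the 5 called members in each library (TMM-normalized CPM, axes from 0). Symbols are replicate numbers, lines are group means and bars are ± 1 SD (n = 3); in each panel the 3 epinephrine samples lie entirely above (Syt5, Rab30, Syt4, Rab3d) or below (Sytl4) the controls.

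Among the priming and docking genes, Sytl4 (ENSMUSG00000031255, chrX:133936385-133981812, minus strand) fell. It encodes granuphilin, a Rab27 effector that docks insulin granules at the plasma membrane and holds back their fusion. It measured 544, 654 and 598 CPM in controls and 419, 401 and 398 CPM after epinephrine, and the groups were well separated. The log2 fold change was -0.56 with a standard error of 0.09 (FDR 0.0181), and the call was kept in 6 of 7 alternatives with all libraries and lost with the block (FDR 0.067). It was called without control 1 (-0.63, FDR 2.4e-10) and lost the call without any other library, with an FDR of 0.0707 and 0.0603 without controls 2 and 3 and of 0.135, 0.141 and 0.148 without epinephrine samples 1, 2 and 3. The partner of granuphilin, Rab27a, a GTPase of secretory granules, was at 223, 221 and 210 CPM in controls and 180, 174 and 175 CPM after epinephrine. The Rab27a groups did not overlap, and its log2 fold change of -0.31 ± 0.08 (SE) missed the threshold in edgeR (FDR 0.0824) and passed it in DESeq2 (FDR 0.00249) and in edgeR without control 1 (FDR 0.000108).

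Rab3d (ENSMUSG00000019066, chr9:21907491-21918192, minus strand), a Rab3 of secretory granules, rose. It was at 145, 129 and 145 CPM in controls and at 188, 179 and 186 CPM after epinephrine. The treated samples were all above the controls, with a log2 fold change of 0.40 and a standard error of 0.08 (1.32-fold, FDR 0.0446). The call was kept in 3 of 7 alternatives with all libraries and lost with limma on FPKM (FDR 0.0622), the size factors of DESeq2 (0.0513), no filter (0.0557) and the replicate block (0.111). Without control 1 its FDR was 1.55e-06, and without control 2 or 3 or epinephrine sample 1, 2 or 3 it was 0.155, 0.0986, 0.274, 0.199 and 0.251. Rab3a, the most abundant Rab3 per length here, was at 120, 88.5 and 95.9 CPM in controls and 92.6, 101 and 106 CPM after epinephrine. The Rab3a groups overlapped, with a 95% interval of -0.31 to 0.26. Its log2 fold change of -0.02 was 0.11 without control 1 (FDR 0.201). Rab3b was at 17.5 to 19.6 CPM in controls and 17.5 to 18 CPM after epinephrine, Rab3c at 2.01 to 2.57 CPM and 1.59 to 1.62 CPM, and Rab27b at 0.688 to 0.971 CPM and 0.859 to 1.23 CPM, none of them past the test. Rab3ip, an exchange factor that activates Rab8, was at 33.5, 29.3 and 33.2 CPM in controls and 38.4, 34.9 and 40.7 CPM after epinephrine (FDR 0.255; 0.0132 without control 1). The 2 subunits of the Rab3 GTPase-activating complex, Rab3gap1 and Rab3gap2, had log2 fold changes of 0.02 and 0.09. The other granuphilin relatives were low: Sytl5 was at 13.9 to 19.2 CPM in controls and 19.2 to 20.7 CPM after epinephrine, and Sytl1 at 1.94 to 2.38 CPM and 2.63 to 4.03 CPM (FDR 0.19).

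The promoters of Rab3d and Sytl4 are shown because these were the called members among the priming and docking genes, and that of Rab27a because it encodes the partner of granuphilin. Rab27a itself missed the threshold. Each is the 250 bases before the RefSeq start on GRCm38.p6, written 5′ to 3′ on the strand of the gene. Capitals mark the core of the cyclic AMP response element (TGACG or CGTCA) and the E-box (CACGTG).
Rab3d, chr9:21918184-21918433, minus strand: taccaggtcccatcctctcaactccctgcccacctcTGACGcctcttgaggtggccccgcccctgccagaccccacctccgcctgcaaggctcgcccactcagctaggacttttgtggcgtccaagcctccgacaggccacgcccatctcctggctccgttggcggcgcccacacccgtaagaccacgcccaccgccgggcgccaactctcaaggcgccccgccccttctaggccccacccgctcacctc
Sytl4, chrX:133981813-133982062, minus strand: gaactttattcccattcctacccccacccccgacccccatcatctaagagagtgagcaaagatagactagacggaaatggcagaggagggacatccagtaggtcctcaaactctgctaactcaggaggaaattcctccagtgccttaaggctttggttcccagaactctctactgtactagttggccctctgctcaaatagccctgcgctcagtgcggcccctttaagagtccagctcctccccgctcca
Rab27a, second start, chr9:73063898-73064147, plus strand: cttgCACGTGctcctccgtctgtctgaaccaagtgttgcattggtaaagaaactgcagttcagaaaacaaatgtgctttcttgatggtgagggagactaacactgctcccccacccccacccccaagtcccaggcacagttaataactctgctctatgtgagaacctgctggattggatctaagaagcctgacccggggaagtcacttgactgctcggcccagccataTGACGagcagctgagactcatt
The TGACG letters stand 214 bases before the Rab3d start and 22 bases before the second Rab27a start, and neither motif occurs in the Sytl4 window. A first Rab27a start, at chr9:73044560-73044809, holds neither motif. On either strand, TGACG was found in 17.8% of the 32851 RefSeq windows of this length and in 24 of 104 windows of the 81 members that have one (23.1%). The E-box was found in 6.02% of all windows and in 16 of the 104 (15.4%), the full element TGACGTCA in 1.55% and in 1, and the amino acid response element TGATGNAAT in 0.816% and in 2. The table used here has no entry for Syt5.

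None of the 24 tested SNARE genes passed the test in edgeR, DESeq2 or limma, and 2 had an unadjusted p under 0.05, where 2.63% and 17.1% of all genes did in edgeR; 0 of so few genes is near that share. Without control 1, 3 of 26 SNARE genes were called higher and 3 lower, against 12.1% and 9.46% of all genes. Snap25, the plasma membrane SNARE that pairs with syntaxin, was at 108, 134 and 124 CPM in controls and 149, 157 and 149 CPM after epinephrine. Its treated samples were all above the controls, with a log2 fold change of 0.31 ± 0.10 (SE) and an FDR of 0.154 (0.23 and 0.00269 without control 1). Snap23, its ubiquitous relative, was at 23.6, 29.8 and 32.4 CPM in controls and 30.6, 32.3 and 31.3 CPM after epinephrine, and the groups overlapped. Vamp2, the granule SNARE of insulin exocytosis, was at 280, 204 and 211 CPM in controls and 221, 235 and 236 CPM after epinephrine. Control 1 alone was above the treated samples, the 2 other controls were below them, and the log2 fold change was -0.00 with a 95% interval of -0.29 to 0.29; without control 1 it was 0.16 (FDR 0.0311). Vamp3, a VAMP of recycling endosomes, was at 110, 125 and 126 CPM and at 115, 111 and 111 CPM (FDR 0.606; -0.16 and 0.0336 without control 1). Vamp8, a VAMP of endosomes and of newly arriving granules, ranged from 27.3 to 48.2 CPM in controls and from 42.6 to 44.8 CPM after epinephrine.

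Among the plasma membrane syntaxins, Stx1a, the partner of Snap25 and Vamp2 in insulin release, was at 13.7, 11.8 and 12 CPM in controls and 11.4, 13.2 and 12.6 CPM after epinephrine. The Stx1a groups overlapped, with a 95% interval of -0.27 to 0.26. Stx4a, used in both phases of insulin release, was at 15.1, 15.6 and 17.3 CPM in controls and 20.2, 17.9 and 17.7 CPM after epinephrine (FDR 0.365), and every treated sample was above every control. Stx2 was at 16.5 to 17.7 CPM in controls and 16.6 to 20.2 CPM after epinephrine, and Stx3 at 51.3 to 70.2 CPM and 65.7 to 66.3 CPM, both with overlapping groups. The 3 syntaxins of the early secretory pathway had positive log2 fold changes with all libraries. Stx18, an ER SNARE, was at 21.2, 26.2 and 24.0 CPM in controls and 31.4, 29.5 and 31.7 CPM after epinephrine (log2 fold change 0.37 ± 0.10, FDR 0.113; 0.29 and 0.0105 without control 1); 29.6% of its exon windows are shared with other genes, among them the antisense neighbour Nsg1. Stx5a, the ER-to-Golgi syntaxin, was at 56.7, 68.6 and 72.0 CPM and at 76.1, 74.7 and 79.0 CPM (FDR 0.327), and Stx17 had a log2 fold change of 0.02 (-0.04 without control 1). The 5 endosomal and trans-Golgi syntaxins lay between -0.15 (Stx7) and 0.09 (Stx16). Stx7, a late endosomal SNARE, was at 123, 156 and 151 CPM in controls and 129, 131 and 127 CPM after epinephrine (FDR 0.511; -0.25 and 0.000822 without control 1). Nsf, the ATPase that takes SNARE complexes apart, was at 181, 129 and 121 CPM in controls and 125, 122 and 129 CPM after epinephrine. Control 1 alone stood above the rest, and the log2 fold change of -0.19 became 0.01 without it. Napa, which encodes alpha-SNAP, was at 240 to 277 CPM in controls and 256 to 265 CPM after epinephrine.

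**Figure D3:**
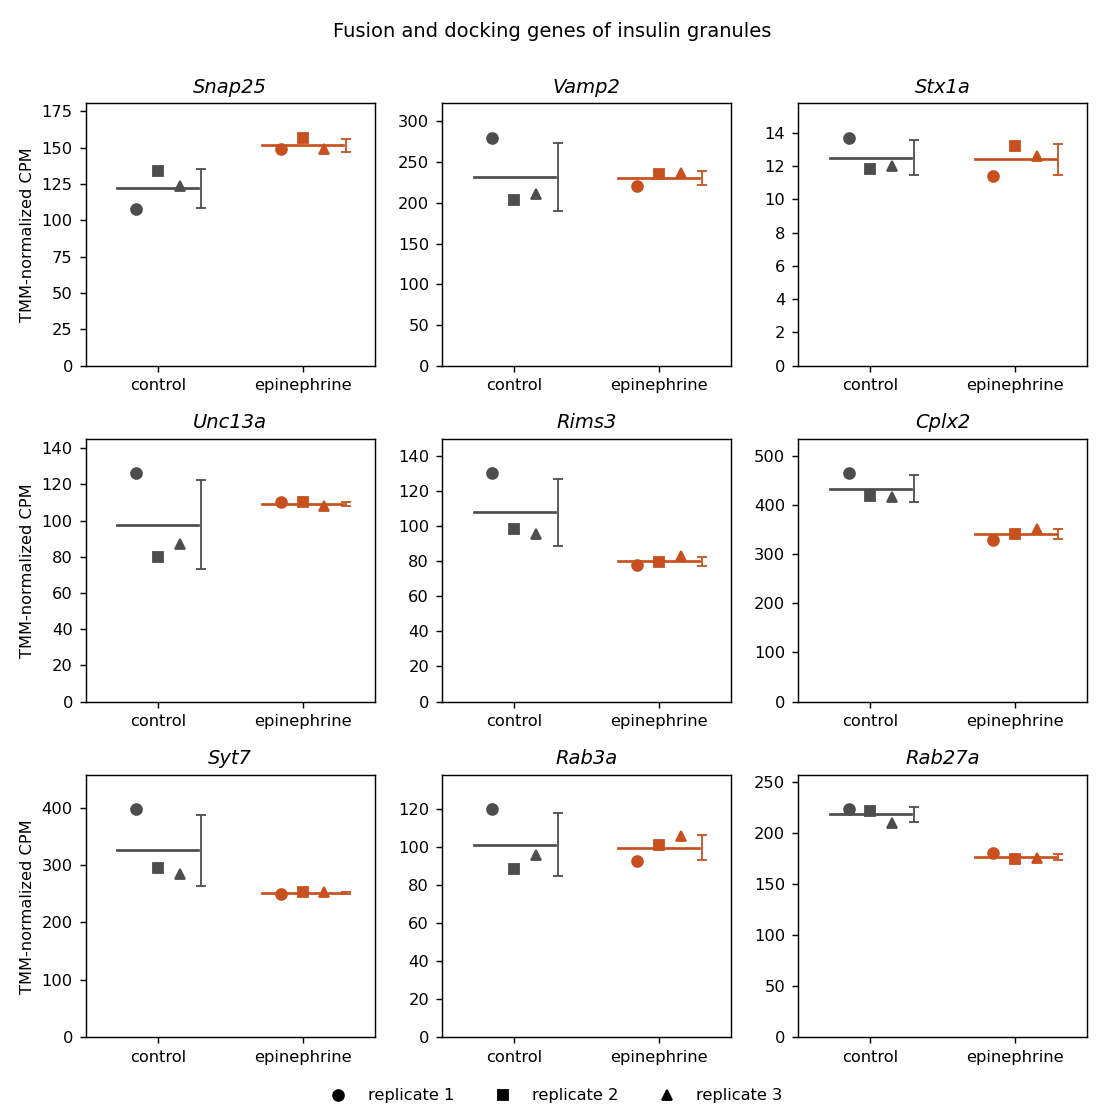
Level of 9 docking, priming and fusion genes in each library (TMM-normalized CPM, axes from 0), with replicate symbols, group means and ± 1 SD (n = 3). Control 1 is the highest control for every gene shown except Snap25, where it is the lowest, while the epinephrine samples lie close together.

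Of the 27 tested priming genes, 10 had a positive and 17 a negative log2 fold change (15 and 13 without control 1), and Sytl4 and Rab3d above were the only 2 that passed the edgeR test, against 2.63% of all genes. For 10 of the 27 the unadjusted p was under 0.05, 3 higher and 7 lower, a larger share than the 17.1% of all genes. The groups did not overlap for 4 that were higher and 9 that were lower, against 14.3% and 13% of all genes. Whether these shares differ was not tested. The fit without control 1 called 4 of 28 higher and 6 lower, against 12.1% and 9.46% of all genes. Complexins clamp and then promote fusion of primed granules. Cplx2, the main complexin here, was at 465, 419 and 417 CPM in controls and 330, 342 and 351 CPM after epinephrine. The groups did not overlap, and the log2 fold change of -0.35 ± 0.08 (SE) missed the threshold in edgeR (FDR 0.0775) and passed it in DESeq2 (FDR 0.0029) and without control 1 (-0.29, FDR 4.66e-05). Cplx1 had the same log2 fold change, from 15.6, 11.1 and 11.7 CPM in controls to 9.61, 10.1 and 10.5 CPM after epinephrine (FDR 0.283), and without control 1, its highest sample, it was -0.18 (FDR 0.289). Rims3, a short RIM of the release site, was at 130, 98.4 and 95.6 CPM in controls and 77.6, 79.6 and 82.8 CPM after epinephrine. All treated samples were below all controls (log2 fold change -0.43 ± 0.13, FDR 0.123; DESeq2 FDR 0.0481; -0.28 and 0.000575 without control 1). Rims2, the RIM that binds Rab3 on insulin granules, was at 64.8, 51.4 and 51.9 CPM and at 46.6, 52.4 and 51.3 CPM, with overlapping groups (95% interval -0.42 to 0.10). Its log2 fold change of -0.16 was -0.04 without control 1 (FDR 0.708).

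Unc13a encodes a Munc13 protein that opens syntaxin for SNARE assembly. It was at 126, 80.1 and 87.0 CPM in controls and 110, 110 and 108 CPM after epinephrine, so control 1 was above and the 2 other controls below the treated samples. Its log2 fold change of 0.16 ± 0.16 (SE) did not pass the test (FDR 0.642), and without control 1 it was 0.39 (FDR 9.63e-06). Unc13b, a second Munc13, was at 37.9, 37.4 and 32.0 CPM and at 39.0, 40.9 and 39.5 CPM (FDR 0.456), and Unc13c at 4.27 to 5.69 CPM and 3.56 to 3.87 CPM (FDR 0.259). Of 7 genes of the syntaxin-binding family, 6 had a negative log2 fold change (4 of 7 without control 1), and none passed the test in edgeR, DESeq2 or limma (1 at an unadjusted p under 0.05), which is near the shares over all genes (2.63% and 17.1% in edgeR). Stxbp3, which binds syntaxin 4, was at 18.5, 31.9 and 26.2 CPM and at 25.5, 23.3 and 22.6 CPM (FDR 0.812; -0.29 and 0.0228 without control 1). Stxbp5l, a tomosyn that competes with VAMP for SNARE partners, was at 16.3, 19.9 and 18.1 CPM in controls and 13.8, 15.7 and 13.4 CPM after epinephrine (FDR 0.197; 0.00402 without control 1).

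None of the 10 tested exocyst genes passed the test in edgeR, DESeq2 or limma, and 2 had an unadjusted p under 0.05, which is near the shares over all genes (2.63% and 17.1% in edgeR). Without control 1, 2 were called higher and 1 lower, against 12.1% and 9.46% of all genes. Exoc6 and Exoc6b encode forms of the Sec15 subunit, which binds Rab GTPases on vesicles. Exoc6 was at 31.7, 34.5 and 33.4 CPM in controls and 38.7, 39.7 and 39.2 CPM after epinephrine. Exoc6b was at 85.3, 78.0 and 74.5 CPM in controls and 92.9, 88.0 and 92.4 CPM after epinephrine. All treated samples were above all controls for both, with log2 fold changes of 0.24 and 0.20 (FDR 0.186 and 0.277; 0.037 and 0.00168 without control 1). The core subunits Exoc3 and Exoc4 were at 53.8 to 58.0 CPM and 68.4 to 81.9 CPM in controls and at 53.8 to 57.3 CPM and 71.3 to 71.7 CPM after epinephrine. Their 95% intervals were -0.18 to 0.19 and -0.27 to 0.14. The most abundant subunits per length were Exoc5 and Exoc7, with log2 fold changes of -0.11 each. Without control 1, Exoc5 was called lower (-0.17, FDR 0.0326) and Exoc7 was at -0.00 (FDR 0.988).

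Of the other Rab GTPases caught by the prefix, Rab30 rose. Rab30 (ENSMUSG00000030643, chr7:92741603-92844535, plus strand), a Rab of the Golgi, was at 3.95, 4.17 and 3.63 CPM in controls and 6.29, 6.05 and 6.48 CPM after epinephrine. The groups were separate at a low depth of 58 to 108 reads a library, with a log2 fold change of 0.68 and a standard error of 0.14 (1.6-fold, FDR 0.0445). The call was kept in 4 of 7 alternatives with all libraries and lost with no filter (FDR 0.0516), limma on log2(FPKM + 1) (0.25 on that scale, FDR 0.272) and the block (0.129). Its FDR was 0.00573 without control 1 and 0.12, 0.126, 0.232, 0.192 and 0.23 without controls 2 and 3 and epinephrine samples 1, 2 and 3. Rab37, a Rab of secretory granules, was at 128, 137 and 141 CPM in controls and 102, 112 and 107 CPM after epinephrine. Rab39b was at 58.8, 65.7 and 61.7 CPM in controls and 80.1, 75.9 and 76.5 CPM after epinephrine, and 16.2% of its exon windows are shared with the antisense gene Gm15063. The groups of both genes did not overlap; their log2 fold changes of -0.34 and 0.32 missed the threshold in edgeR (FDR 0.0812 and 0.0877) and passed it in DESeq2 (FDR 0.00561 and 0.0223).

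The number of members called depended on the libraries and on the method. Without control 1, 27 of 89 members tested passed the edgeR test, against 21.6% of all genes, 14 higher (12.1% of all genes) and 13 lower (9.46% of all genes). The 5 members called with all libraries were among them. Without any other single library, only Syt5 was called. Besides those whose values without control 1 are given above, the members added were Syt3 (0.26), Rab3gap2 (0.28) and Rab39b (0.28), higher, and Snap29 (-0.21) and Rab37 (-0.38), lower, on the log2 scale. Of the exon windows of Rab3gap2, 18.2% are shared with the antisense neighbour Iars2. The 2 controls that remain without control 1 are those with the higher hepatocyte markers, and the part of that RNA in the calls without control 1 was not tested.

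**Figure D4:**
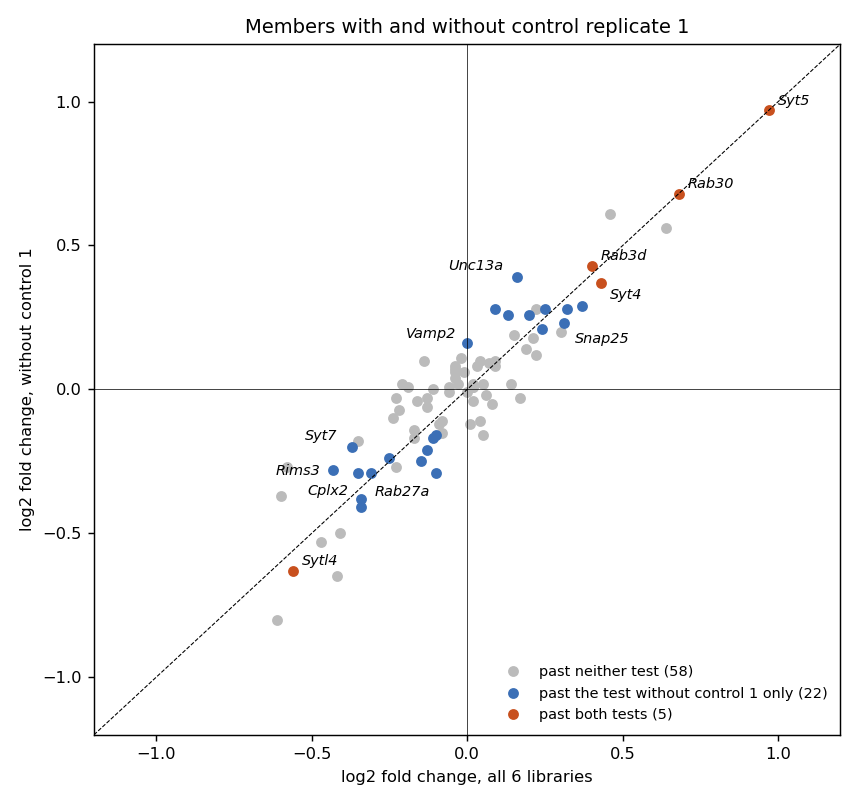
Log2 fold change of the 85 tested members with all 6 libraries (x axis) and without control 1 (y axis); the dashed line marks equal values. The 5 orange points passed the test in both, and 22 blue points passed it without control 1 alone, among them Unc13a and Vamp2, which lie above the line.

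Levels of different genes can be set side by side per length, in the authors' FPKM values. Syt13, at 200 to 262 FPKM over the 6 libraries, and Sytl4, at 215 to 239 FPKM in controls and 148 to 157 FPKM after epinephrine, were the most abundant members. In controls their ranges overlapped and Sytl4 was the higher of the pair in controls 2 and 3, and after epinephrine Sytl4 lay below Syt13 in every sample. Vamp2 (98.8 to 135 FPKM) and Napa (95.7 to 113 FPKM) followed with overlapping ranges. Syt4 was at 69.5 to 79.9 FPKM in controls, overlapping with Snap25 (65.5 to 79.3 FPKM) and below Cplx2 (84.1 to 97.0 FPKM), and after epinephrine it was at 95.3 to 102 FPKM, above Snap25 (87.0 to 89.8 FPKM) and Cplx2 (66.6 to 70.6 FPKM). Stx1a was low beside its partners, at 5.46 to 6.50 FPKM. Among the calcium sensors that bind calcium, Syt7 had the highest level, at 55.6 to 94.2 FPKM. Syt5 was at 18.1 ± 1.40 FPKM in controls and 33.2 ± 1.23 FPKM after epinephrine (SD, n = 3), against 14.0 to 19.4 FPKM for Syt9 over all libraries.

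**Figure D5:**
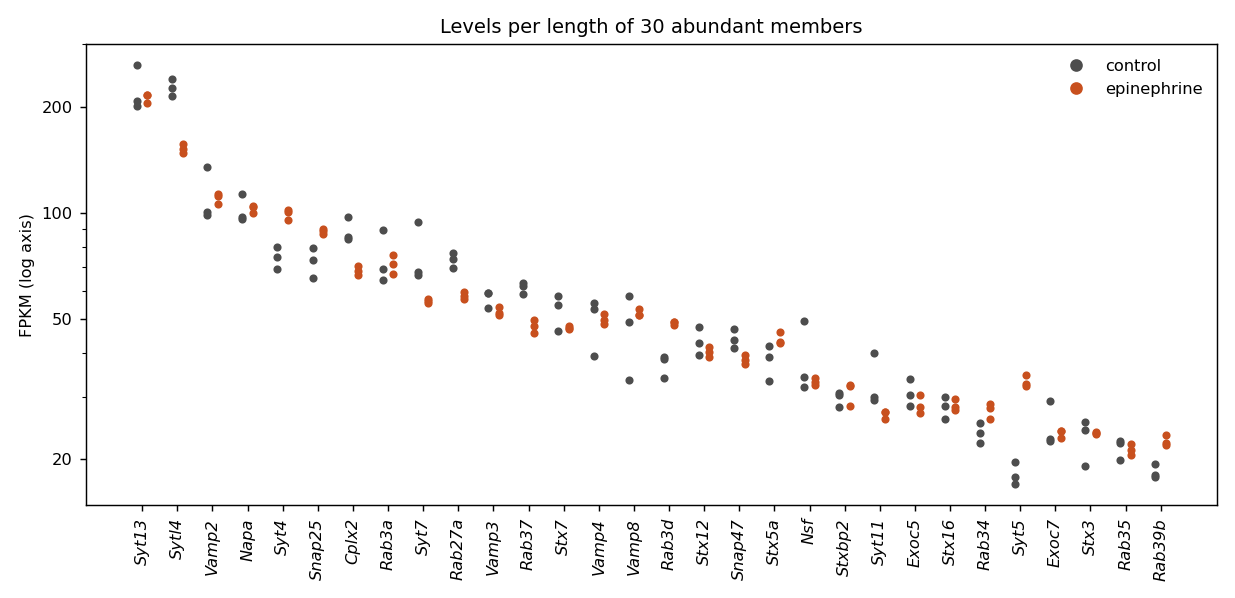
FPKM of 30 abundant members in each library on a log axis, ordered by the mean over all libraries, with controls in grey and epinephrine samples in orange. Syt13 and Sytl4 lead, and among the genes whose groups separate are Sytl4, Syt4, Cplx2, Rab27a, Rab37, Rab3d and Syt5.

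Exocytosis genes that the symbol rule does not take, such as the CAPS, piccolo and double C2 genes, were counted as a list. Of 25, 23 were tested and none was called in edgeR or limma. An unadjusted p under 0.05 was seen for 6, against 17.1% of all genes. Of these, 1 was higher and 5 lower, where 1171 of all 12747 genes were higher and 1008 lower. DESeq2 called 1 of 25 lower, against 2.04% of all genes. The median log2 fold change was -0.08 (0.01 without control 1). Without control 1, 2 were called higher and 2 lower, against 12.1% and 9.46% of all genes. The 17 SNAREs and Sec1-type SNARE partners (such as Scfd1 and Vps45) of the secretory and endosomal pathways outside the rule were each tested. None was called in edgeR, DESeq2 or limma, against 2.63% of all genes in edgeR. An unadjusted p under 0.05 was seen for 3, all higher, where 1171 of all 12747 genes had such a p and were higher. A positive log2 fold change was seen for 12, and the median was 0.10, against -0.00 over all genes. Without control 1, 10 were positive and the median was 0.06. In that fit 2 were called higher, against 12.1% of all genes.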

How the data were processed

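RNA of 3 control and 3 chronic epinephrine samples of MIN6 cells was sequenced by the authors on an Illumina NovaSeq 6000. The authors' deposited table gives an expected count per gene and sample, not normalized between samples, of which 8.34% were not whole. It also gives the authors' deposited FPKM value, scaled to gene length and library total. The submitters' processing notes name GRCm38. The aligner, the counter and the use of strand are not given in the sources used here. Per gene, expected counts split between similar or overlapping genes are uncertain.

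Expected counts were rounded, kept by filterByExpr, normalized by TMM and tested in R 4.3.3 with edgeR 4.0.16 (quasi-likelihood F-test) over all 12747 genes kept, with no covariate and Benjamini-Hochberg adjustment. The standard error is the log2 fold change divided by the square root of F, and 95% intervals use the t distribution with the degrees of freedom of that test. CPM values use TMM library sizes and compare a gene between samples, and FPKM compares genes. The script was checked on simulated counts. Alternatives were other scalings and filters, DESeq2 1.42.0, limma 3.58.1 on log2(FPKM + 1), replicate number as a block and each library left out in turn. Positions and overlaps are from GENCODE M21 (22255 of 22298 identifiers found), in windows of 50 bases. Promoters are from RefSeq on GRCm38.p6.

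The members and lists were chosen with earlier results of these data known. Members were named when called in the test, when on a list of 26 core insulin exocytosis genes, when their unadjusted p was under 0.05, when among the 3 highest mean FPKM values of the SNARE, calcium sensor, priming or exocyst genes, or when called without control 1; the remaining members are named for completeness of a family. Single values of 2 tested members are not reported here, and they count in the totals.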

Additional observations from a re-analysis of the deposited data

How the results depend on the processing

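The number of members called at an FDR under 0.05 was 5 with all libraries and edgeR's quasi-likelihood test, 10 with DESeq2, 3 with no filter on low counts, 2 with limma on log2(FPKM + 1) and 1 with replicate number as a block. Leaving out 1 library gave 1 to 27 members, and 0 to 1 members that also changed by at least 2-fold. Over all genes the count was 335, with 734 for DESeq2, 352 with no filter, 262 with limma and 178 with the replicate block. With 1 library left out it was 47 to 2798. The number of members fell to 4 with the size factors of DESeq2 and with upper quartile scaling. Under each of these, 327 of all genes were called. Same-numbered samples hardly deviated together from their group means (Pearson r over genes 0.0502, 0.0677 and -0.0488). With 3 samples per group this cannot show whether they were handled as pairs, and the labels name no pairing. Under the block only Syt5 was called (FDR 0.0126). Fewer samples are in each fit with a library left out; the cause of the other shifts was not tested. The log2 fold change took both signs with a library left out for 29 of the 85 tested members, among them Exoc3 (-0.02 to 0.03), Exoc4 (-0.12 to 0.01), Napa (-0.01 to 0.10), Nsf (-0.30 to 0.01), Rab35 (-0.04 to 0.08), Rab3a (-0.12 to 0.11), Rab3gap1 (-0.01 to 0.07), Stx1a (-0.06 to 0.06), Stx17 (-0.04 to 0.09), Stx2 (-0.02 to 0.13), Stx3 (-0.05 to 0.17), Stxbp3 (-0.29 to 0.08), Syt13 (-0.12 to 0.07), Syt9 (-0.10 to 0.06), Vamp2 (-0.10 to 0.16) and Vamp8 (-0.03 to 0.35). Rab35, at 0.03, was at -0.01 with limma on FPKM. Depth limits the 18 members below the filter, none of which reached 1 CPM, and tested members with few reads in each library, such as Rab27b (11 to 22), Rab3c (24 to 45), Sytl1 (30 to 62), Syt6 (35 to 68) and Rab30 (58 to 108).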
